A study of Homo sapiens with 6 samples.

Results

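The transcripts described here are 40 genes of homologous recombination and the Fanconi anaemia pathway, with the kinases that sense DNA damage, out of 60483 genes in the count tables. They were chosen by name for their role, each symbol matched 1 Ensembl gene ID, and 39 passed the filter on low counts. RNA was sequenced from the human colorectal adenocarcinoma cell line DLD-1 after transfection with siRNA against AHR (3 libraries) or with a control siRNA (3 libraries). The product of AHR is the aryl hydrocarbon receptor, which binds DNA and turns on genes once a ligand is bound, and the labels name no other allele or agent for any of the 6 libraries. The sources used here give neither the time after transfection nor the siRNA sequences. No label says that the replicates were separate cultures, and the spread behind each p-value may therefore be technical.

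Homologous recombination copies the sister chromatid to mend a broken chromosome. The broken end is first trimmed to single-stranded DNA by nucleases such as MRE11 and EXO1, BRCA1 and BRCA2 then help the trimmed strand to invade the intact copy, and the joined molecules are finally taken apart by helicases or cut by nucleases. The Fanconi pathway handles crosslinks between the DNA strands: a core complex with the E2 enzyme UBE2T attaches ubiquitin to the FANCD2 and FANCI pair, which brings in nucleases and hands the break to recombination. Sister chromatids exist after replication, and many of these genes are known to be transcribed mainly in cells that replicate their DNA, in part through E2F transcription factors.

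A word of the E2F binding site was found in the promoter window of 5 of the 36 members searched, and all sites found are shown because E2F factors are known regulators of such genes. The promoter of FANCD2 is shown whole, with its site directly at the annotated start. Sequences are from RefSeq (GRCh38.p14), read 5′ to 3′ on the strand of the gene, with the E2F word in capitals. The window covers 250 bases before to 50 bases after the annotated start of each gene. That start can be an alternative one, upstream or inside the gene.
XRCC2 (chr7:152676102-152676131, minus strand): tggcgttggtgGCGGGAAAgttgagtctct
FANCA (chr16:89816801-89816830, minus strand): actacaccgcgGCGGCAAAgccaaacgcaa
FANCC, upstream site (chr9:95317863-95317892, minus strand): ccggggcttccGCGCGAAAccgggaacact
FANCC, downstream site (chr9:95317737-95317766, minus strand): ttcgtcggaatTTTCCCGCgacgccgcggg
EXO1 (chr1:241848197-241848226, plus strand): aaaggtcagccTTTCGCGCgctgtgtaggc
FANCD2 promoter (chr3:10026187-10026486, plus strand): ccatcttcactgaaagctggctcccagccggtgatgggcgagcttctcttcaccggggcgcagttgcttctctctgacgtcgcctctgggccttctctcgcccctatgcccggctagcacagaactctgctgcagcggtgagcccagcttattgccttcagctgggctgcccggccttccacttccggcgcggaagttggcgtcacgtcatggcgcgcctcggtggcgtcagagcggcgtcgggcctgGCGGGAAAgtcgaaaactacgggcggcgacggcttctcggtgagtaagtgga

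The libraries held 11567736 to 12937058 counts with AHR siRNA and 13585529 to 15037145 counts with control siRNA. AHR itself stood at 95.8, 87.4 and 94.95 CPM in the AHR siRNA libraries and at 117, 144 and 132 CPM in the control siRNA libraries, so 70.9% of the control level remained (log2 fold change -0.50, SE 0.08, edgeR adjusted p = 1.98e-05). CPM is the usual scale that divides a count by the sum of its library, here the sum over tested genes, adjusted with TMM factors. Of 9 epithelial and intestinal markers, 8 were tested, of which 5 were lower, 2 were not called and VIL1, named after its value was seen, was higher at 449% of control; the median was 84.5%. Their summed levels were 8031 to 8353 CPM in AHR siRNA and 11630 to 13152 CPM in control siRNA libraries, most of it from KRT8 and KRT18, which stood at 61.4% and 62.1% of control. Summed levels of 8 fibroblast markers were 2.13 to 3.31 CPM in AHR siRNA and 2.23 to 3.15 CPM in control siRNA libraries, with DCN, LUM, PDGFRA and THY1 at 0 in all 6. Those of 8 leukocyte markers were 3.38 to 4.56 CPM in AHR siRNA and 4.0 to 5.66 CPM in control siRNA libraries. Those of 6 endothelial markers were 6.03 to 7.05 CPM in AHR siRNA and 5.18 to 6.75 CPM in control siRNA libraries, with KDR at 0 in all 6. On the second principal component, which held 8.35% of the variance, control siRNA replicate 1 stood apart from the rest of its group.

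Most of the recombination and Fanconi transcripts were lower in AHR siRNA cells. Of the 39 tested members, 30 were called lower and 3 higher, and 6 were not called (edgeR quasi-likelihood test, adjusted p under 0.05). Over all 14900 tested genes, 60.1% were called in either direction, 30.1% lower and 30.0% higher. The median of the members was a log2 fold change of -0.82, or 56.5% of control, against 0.01 for all tested genes, and the 40 members together took 0.157 to 0.172% of the counts in AHR siRNA libraries and 0.223 to 0.241% in control siRNA libraries. With library totals in place of TMM, the median over all genes moved up by 0.15 on the log2 scale, and 27 members were lower and 4 higher, beside 3205 lower and 5885 higher among all genes (4479 and 4474 with TMM). In bulk RNA, fewer cells that express a gene and less of its RNA per cell cannot be told apart.

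Deep falls were common among the members. A fall of at least 2-fold was called for 15 of the 39 (38.5%), against 5.46% of all tested genes. For 33 of the 39 every AHR siRNA library lay on one side of every control siRNA library, against 63.7% of all tested genes. The member that fell furthest was FANCB (log2 fold change -1.68, SE 0.17), and 0.899% of all tested genes had a lower one. BLM followed at -1.59 and EME1 at -1.44. At the other end stood FANCF at 0.37, ATM at 0.36 and MUS81 at 0.31.

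**Figure D1:**
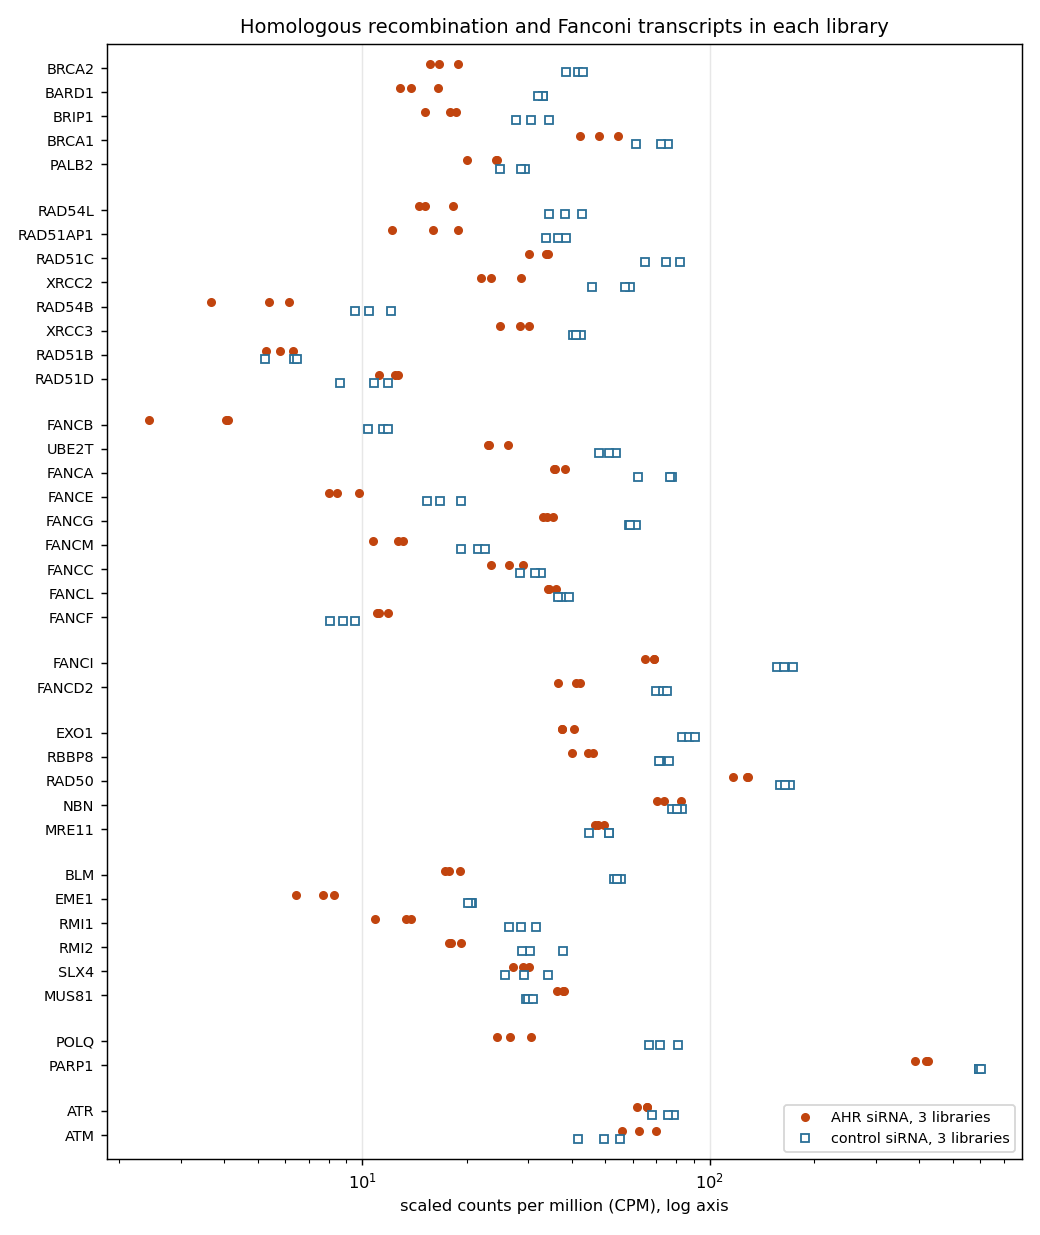
Scaled CPM of the 39 tested members in each of the 6 libraries, on a log axis, with AHR siRNA libraries as filled circles and control siRNA libraries as open squares. PARP1 stands far to the right in both groups, at 390 to 423 CPM with AHR siRNA and 596 to 602 CPM with control siRNA. The AHR siRNA libraries of FANCB, at 2.43 to 4.11 CPM, lie well to the left of its control siRNA libraries, at 10.4 to 11.9 CPM.

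The 5 genes of the BRCA complexes were all called lower, by unequal amounts. BRCA2 (ENSG00000139618.13, chromosome 13), which acts on the single-stranded DNA before strand invasion, had 16.6, 15.7 and 18.9 CPM in AHR siRNA libraries and 38.5, 41.8 and 43.2 CPM in control siRNA libraries. Every AHR siRNA library lay below every control library, at 41.4% of control on average (log2 fold change -1.27, SE 0.09, edgeR adjusted p = 9.60e-10). BARD1 (ENSG00000138376.9, chromosome 2), the RING partner of BRCA1 in its ubiquitin ligase, had 13.8, 12.8 and 16.5 CPM with AHR siRNA, against 33.2, 33.2 and 32.1 CPM with control siRNA. Its groups were far apart as well (log2 fold change -1.19, SE 0.10, edgeR adjusted p = 6.63e-09).

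BRCA1 (ENSG00000012048.18, chromosome 17), the scaffold that promotes end resection and recruits PALB2, fell less than its partner. It averaged 48.3 ± 6.0 CPM with AHR siRNA and 69.8 ± 7.7 CPM with control siRNA (SD, n = 3 each), and the log2 fold change was -0.53 (SE 0.09; edgeR adjusted p = 7.46e-05). The helicase gene BRIP1, whose product binds BRCA1, fell to 55.8% of control. PALB2, the bridge between BRCA1 and BRCA2, averaged 22.9 ± 2.5 CPM with AHR siRNA and 27.7 ± 2.5 CPM with control siRNA (SD, n = 3 each), and the log2 fold change was -0.28 (SE 0.10; edgeR adjusted p = 0.0234). Its call was lost without AHR siRNA replicate 2 (-0.19, adjusted p = 0.149), control siRNA replicate 2 (-0.24, adjusted p = 0.0825) or control siRNA replicate 3 (-0.26, adjusted p = 0.0668), with library totals (-0.13, adjusted p = 0.301) and with DESeq2 (-0.29, adjusted p = 0.0506), in a range of adjusted p from 0.00125 to 0.301.

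Among the 8 genes of strand exchange (RAD51B, RAD51C, RAD51D, XRCC2, XRCC3, RAD51AP1, RAD54L and RAD54B), 6 were called lower and RAD51B and RAD51D were not called. RAD54L (ENSG00000085999.10, chromosome 1), a motor protein that drives strand exchange, had 15.2, 14.6 and 18.2 CPM in AHR siRNA libraries and 34.4, 38.4 and 43.0 CPM in control siRNA libraries (log2 fold change -1.27, SE 0.11, edgeR adjusted p = 5.60e-09). RAD51C (ENSG00000108384.13, chromosome 17), a subunit of both complexes of this gene family, had 33.8, 34.1 and 30.1 CPM with AHR siRNA, against 82.2, 65.2 and 74.8 CPM with control siRNA (log2 fold change -1.18, SE 0.09, edgeR adjusted p = 1.51e-09). In both genes the groups did not overlap. RAD51AP1, which stimulates strand invasion, fell to 43.1% of control, XRCC2 to 45.8%, and RAD54B, a relative of RAD54L, to 47.5%.

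The genes of this family split. XRCC3, the partner of RAD51C in a complex of the pair, fell to 67.2% of control (log2 fold change -0.57, SE 0.09). RAD51B (ENSG00000182185.17, chromosome 14) had 5.80, 6.32 and 5.29 CPM in AHR siRNA libraries and 6.38, 6.49 and 5.23 CPM in control siRNA libraries, on 68 to 94 counts per library. Its log2 fold change was -0.06 (95% confidence interval -0.39 to 0.27, edgeR adjusted p = 0.769), with a positive sign under library totals and with GC and length trends removed. RAD51D (ENSG00000185379.19, chromosome 17) had 12.4, 12.6 and 11.2 CPM with AHR siRNA, against 8.63, 11.9 and 10.8 CPM with control siRNA. The groups overlapped (log2 fold change 0.21, interval -0.07 to 0.48, edgeR adjusted p = 0.179), and with library totals it was called higher (0.36, adjusted p = 0.0330, the lowest in a range up to 0.619). RAD51B, RAD51C, RAD51D and XRCC2 form one complex in human cells, and of its transcripts RAD51C and XRCC2 fell while RAD51B and RAD51D were not called.

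Of the 9 genes of the Fanconi core complex and its E2 enzyme, 7 were called lower, 1 higher and 1 was not called. UBE2T (ENSG00000077152.8, chromosome 1), the E2 enzyme of the pathway, had 26.3, 22.9 and 23.1 CPM in AHR siRNA libraries and 53.8, 51.1 and 47.9 CPM in control siRNA libraries (log2 fold change -1.08, SE 0.08, edgeR adjusted p = 2.51e-09). FANCA (ENSG00000187741.13, chromosome 16), a large core subunit that pairs with FANCG, had 35.7, 35.9 and 38.3 CPM with AHR siRNA, against 62.1, 77.6 and 76.8 CPM with control siRNA (log2 fold change -0.98, SE 0.09, edgeR adjusted p = 1.50e-08). Neither gene had overlapping groups. FANCB, a subunit of the catalytic module, fell to 31.4% of control on 33 to 56 counts per AHR siRNA library. FANCE, which bridges the core complex to FANCD2, fell to 51.0%, FANCG to 57.3%, and the DNA translocase gene FANCM to 57.7%.

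The remaining core genes moved little or the other way. FANCL (ENSG00000115392.10, chromosome 2), the ubiquitin ligase itself, had 36.2, 34.3 and 34.2 CPM in AHR siRNA libraries and 37.4, 39.3 and 36.5 CPM in control siRNA libraries. Its groups did not overlap, but the difference was small and not called (log2 fold change -0.11, interval -0.28 to 0.05, edgeR adjusted p = 0.219), and it was 0.03 with library totals. FANCC averaged 26.3 ± 2.8 CPM with AHR siRNA and 30.8 ± 2.1 CPM with control siRNA (SD, n = 3 each), with overlapping groups (log2 fold change -0.23, SE 0.09, edgeR adjusted p = 0.0451). The FANCC call was lost without AHR siRNA replicate 1 (-0.23, adjusted p = 0.0825) or 2 (-0.15, adjusted p = 0.225), without control siRNA replicate 1 (-0.19, adjusted p = 0.0777) or 3 (-0.22, adjusted p = 0.0980), with library totals (-0.08, adjusted p = 0.486), with DESeq2 (-0.25, adjusted p = 0.0901) and with a filter at 1 CPM (-0.22, adjusted p = 0.0522), in a range from 0.00636 to 0.486.

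FANCF (ENSG00000183161.4, chromosome 11), an adaptor subunit encoded by a gene with a single exon, was the core gene that rose. It had 11.02, 11.8 and 11.2 CPM with AHR siRNA, against 9.53, 8.08 and 8.77 CPM with control siRNA (log2 fold change 0.37, SE 0.12, edgeR adjusted p = 0.0147). The groups were separate. The FANCF call was lost without AHR siRNA replicate 2 (0.34, adjusted p = 0.0588), without control siRNA replicate 2 (0.30, adjusted p = 0.0775) and with DESeq2 (0.35, adjusted p = 0.0942), in a range from 0.00134 to 0.0942.

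Both members of the pair that receives the ubiquitin fell. FANCI (ENSG00000140525.16, chromosome 15) had 69.2, 65.2 and 69.0 CPM in AHR siRNA libraries and 156, 164 and 173 CPM in control siRNA libraries, which is 41.3% of control (log2 fold change -1.28, SE 0.07, edgeR adjusted p = 1.76e-11). FANCD2 (ENSG00000144554.9, chromosome 3) had 41.2, 36.5 and 42.4 CPM with AHR siRNA, against 69.8, 73.2 and 75.1 CPM with control siRNA, which is 55.0% of control (log2 fold change -0.86, SE 0.08, edgeR adjusted p = 1.49e-08). Neither gene had overlapping groups.

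**Figure D2:**
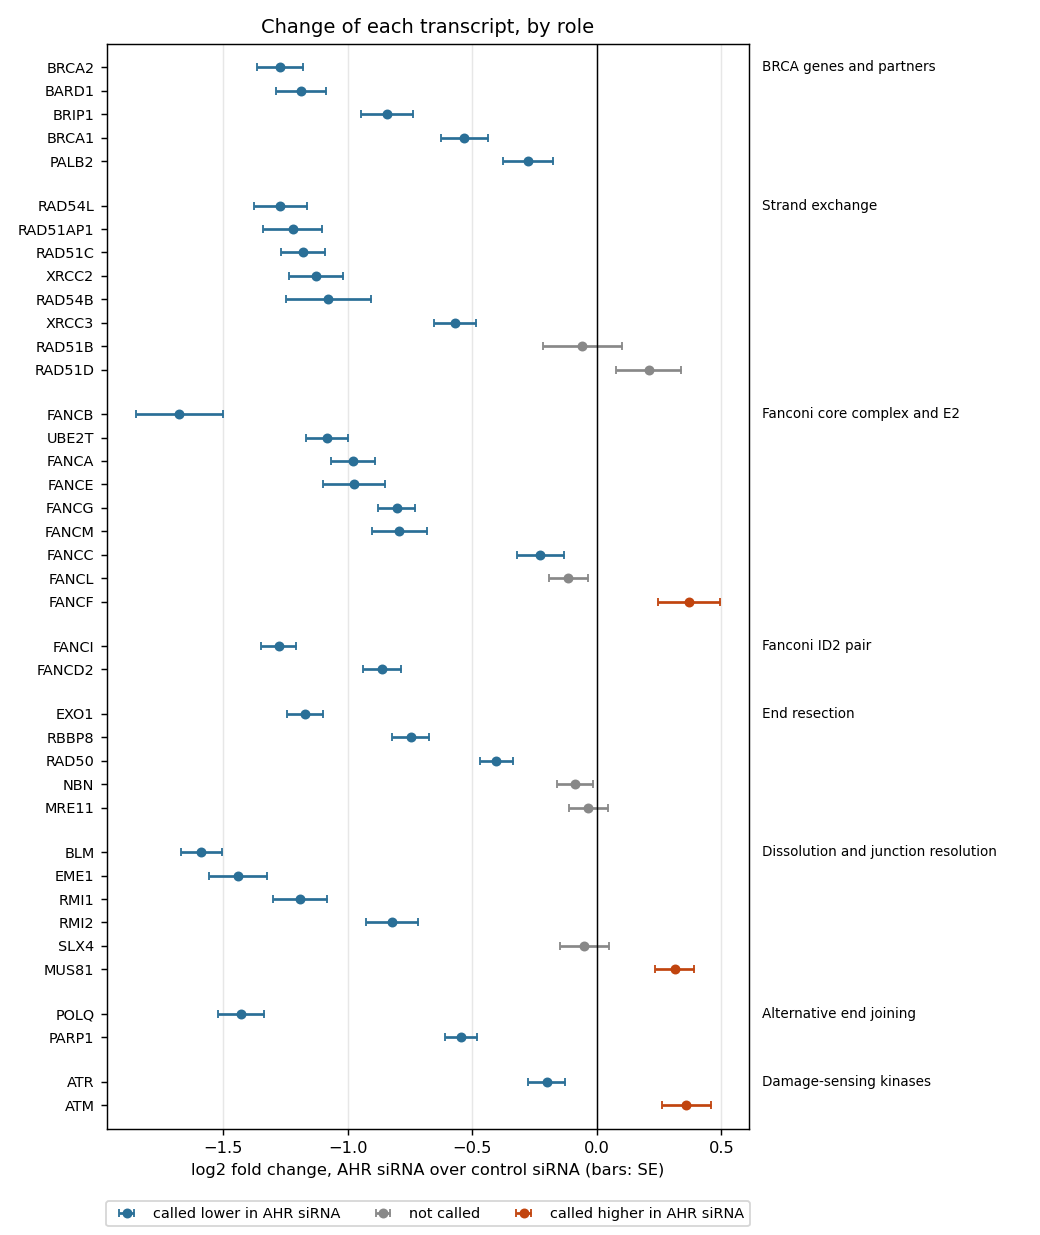
Log2 fold change of each tested member, AHR siRNA over control siRNA, with its SE as a bar, grouped by role and ordered within each role. The points run from -1.68 for FANCB to 0.37 for FANCF, and most lie left of the line that marks no change.

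Of the 5 genes of end resection, EXO1, RBBP8 and RAD50 were called lower, and MRE11 and NBN were not called. EXO1 (ENSG00000174371.15, chromosome 1), the exonuclease of long-range resection, had 37.4, 37.4 and 40.8 CPM in AHR siRNA libraries and 82.9, 87.2 and 90.5 CPM in control siRNA libraries (log2 fold change -1.17, SE 0.07, edgeR adjusted p = 1.25e-10). RBBP8, which encodes CtIP, the cofactor that starts resection, fell to 59.6% of control. The groups did not overlap in either gene. RAD50, the long coiled-coil subunit of the complex that MRE11 and NBN share with it, fell to 75.7% of control (log2 fold change -0.40, SE 0.07, edgeR adjusted p = 3.87e-05), and to -0.26 with library totals (adjusted p = 0.00389, in a range from 4.83e-08 to 0.00389).

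The intervals of both uncalled genes included 0. The nuclease gene MRE11 (ENSG00000020922.11, chromosome 11) had 47.5, 46.8 and 49.5 CPM in AHR siRNA libraries and 51.4, 51.1 and 44.8 CPM in control siRNA libraries (log2 fold change -0.03, interval -0.20 to 0.13, edgeR adjusted p = 0.721). NBN (ENSG00000104320.12, chromosome 8), the subunit that brings ATM to the complex, had 82.7, 70.5 and 73.7 CPM with AHR siRNA, against 82.9, 77.6 and 80.3 CPM with control siRNA (log2 fold change -0.09, interval -0.24 to 0.07, edgeR adjusted p = 0.320). Both had overlapping groups, and both took a positive sign with library totals and with GC and length trends removed.

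The genes that take joined molecules apart held 2 of the deepest falls beside 2 genes that did not fall. BLM (ENSG00000197299.9, chromosome 15), the helicase that dissolves double Holliday junctions, had 19.1, 17.3 and 17.7 CPM in AHR siRNA libraries and 52.9, 55.4 and 54.2 CPM in control siRNA libraries. At 33.3% of control it had the smallest p-value of all members (log2 fold change -1.59, SE 0.08, edgeR adjusted p = 1.07e-11). Its partners RMI1 and RMI2, which stabilise the dissolving complex, fell to 43.9% and 56.5%.

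EME1 and MUS81, which encode the regulatory and the catalytic subunit of one junction-cutting nuclease, moved in opposite directions. EME1 (ENSG00000154920.13, chromosome 17) had 6.46, 7.72 and 8.30 CPM with AHR siRNA, against 20.7, 20.5 and 20.1 CPM with control siRNA (log2 fold change -1.44, SE 0.12, edgeR adjusted p = 3.94e-09). MUS81 (ENSG00000172732.10, chromosome 11) had 36.4, 37.9 and 38.1 CPM with AHR siRNA, against 29.5, 29.9 and 31.1 CPM with control siRNA (log2 fold change 0.31, SE 0.08, edgeR adjusted p = 0.00194). Neither gene had overlapping groups, and MUS81 stood at 0.19 with GC and length trends removed (adjusted p = 0.0220, the highest in a range from 9.55e-05). SLX4 (ENSG00000188827.9, chromosome 16), the scaffold that holds these nucleases, had 27.2, 30.2 and 29.01 CPM in AHR siRNA libraries and 25.7, 34.3 and 29.2 CPM in control siRNA libraries, and was not called (log2 fold change -0.05, interval -0.26 to 0.16, edgeR adjusted p = 0.689; 0.10 with library totals and 0.06 without control siRNA replicate 2).

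Alternative end joining is the error-prone route that anneals short matching stretches at the break. POLQ (ENSG00000051341.12, chromosome 3), its DNA polymerase, had 26.7, 24.3 and 30.6 CPM in AHR siRNA libraries and 66.7, 71.9 and 81.1 CPM in control siRNA libraries, or 37.1% of control (log2 fold change -1.43, SE 0.09, edgeR adjusted p = 2.13e-10). PARP1, which marks breaks with ADP-ribose chains, averaged 410 ± 17 CPM with AHR siRNA and 598 ± 4 CPM with control siRNA (SD, n = 3 each), and the log2 fold change was -0.54 (SE 0.06; edgeR adjusted p = 6.84e-07). Per kilobase of transcript, PARP1 was the most abundant member in both groups, at 104 CPM per kilobase with AHR siRNA and 151 CPM per kilobase with control siRNA. UBE2T stood at 26.6 CPM per kilobase with AHR siRNA and 56.1 CPM per kilobase with control siRNA.

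The damage-sensing kinases changed by small amounts and in opposite directions. ATM (ENSG00000149311.16, chromosome 11), the kinase that responds to broken ends, rose, with 62.5, 55.7 and 69.8 CPM in AHR siRNA libraries and 41.6, 55.1 and 49.6 CPM in control siRNA libraries (log2 fold change 0.36, SE 0.10, edgeR adjusted p = 0.00377). The lowest AHR siRNA library lay just above the highest control library. ATR, the kinase that responds to single-stranded DNA at stalled forks, averaged 64.6 ± 2.4 CPM with AHR siRNA and 74.2 ± 5.5 CPM with control siRNA (SD, n = 3 each), and the log2 fold change was -0.20 (SE 0.07; edgeR adjusted p = 0.0250). The ATR call was lost without AHR siRNA replicate 2 (-0.17, adjusted p = 0.104), without control siRNA replicate 2 (-0.16, adjusted p = 0.111) or 3 (-0.20, adjusted p = 0.0740), and with library totals (-0.05, adjusted p = 0.563), in a range from 0.00123 to 0.563. ATRIP (ENSG00000164053.16, chromosome 3), the partner of ATR, was not tested: it had 3, 4 and 2 counts in AHR siRNA libraries and 1, 1 and 0 counts in control siRNA libraries, and no fold is given at that depth. In GENCODE 29, 27.9% of its exon positions are shared with TREX1 on the same strand. TREX1 was at 0 counts in all 6 libraries, and the effect of this overlap on the ATRIP count was not tested.

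Ratios of counts between partner genes within a library do not depend on the scaling. For the 10 pairs compared, the AHR siRNA and control siRNA libraries did not overlap in any, and each exact two-sided permutation test gave p = 0.1, the smallest that 3 libraries against 3 allow (0.1 after Benjamini-Hochberg adjustment over the 10). Ratios of other gene pairs were not compared, so whether such separation is more common among partner genes was not tested. Among all single tested genes, 63.7% had groups that did not overlap in scaled CPM. A shift in a ratio restates the unequal fold changes of its partner genes given above. The EME1 to MUS81 ratio was 0.178, 0.204 and 0.218 with AHR siRNA, against 0.702, 0.686 and 0.646 with control siRNA. The PALB2 to BRCA2 ratio was 1.47, 1.28 and 1.29 with AHR siRNA, against 0.645, 0.706 and 0.665 with control siRNA. These were the widest shifts of the 10, and in both the partner that fell less, or rose, gained on the other.

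The shifts were smaller in the other pairs. BARD1 to BRCA1 stood at 0.326, 0.267 and 0.303 with AHR siRNA, against 0.542, 0.437 and 0.444 with control siRNA. The FANCI to FANCD2 ratio was 1.68, 1.79 and 1.63 with AHR siRNA, against 2.24, 2.24 and 2.30 with control siRNA. RMI2 to BLM stood at 1.004, 1.04 and 1 with AHR siRNA, against 0.715, 0.550 and 0.530 with control siRNA. Differences in mean log2 ratio, AHR siRNA minus control siRNA, ran from 0.31 to 0.40 for NBN and MRE11 over RAD50 and for RMI1 over BLM.

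**Figure D3:**
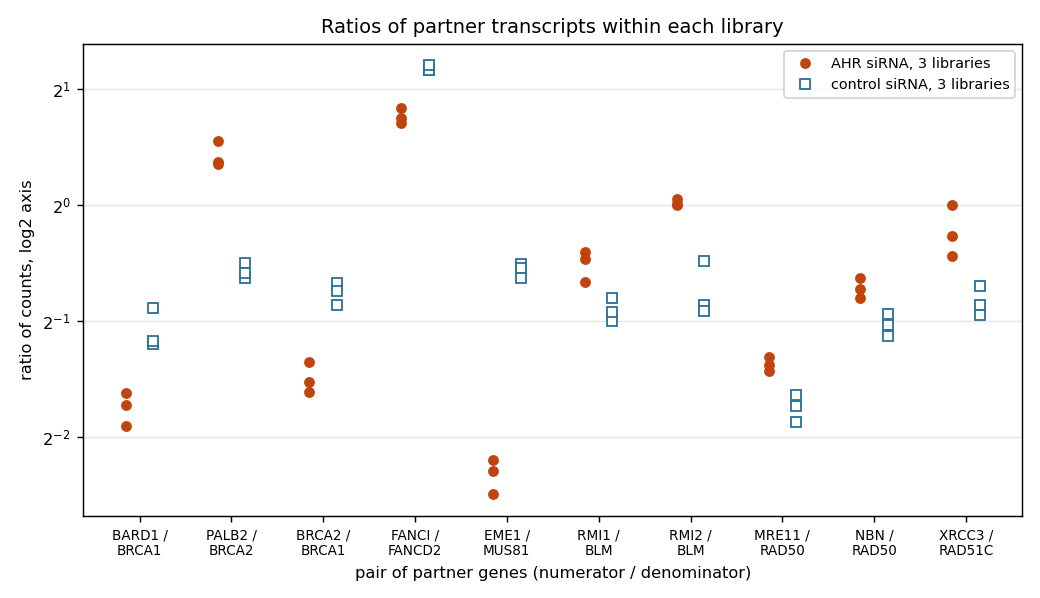
Ratio of the counts of partner genes within each library, on a log2 axis, for 10 pairs, with AHR siRNA libraries as filled circles left of the control siRNA libraries as open squares. The widest gap is in EME1 over MUS81, at 0.178 to 0.218 with AHR siRNA and 0.646 to 0.702 with control siRNA.

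Most of the other recombination genes were lower as well, beside 30.1% lower and 30.0% higher among all tested genes. Of 23 other recombination genes, 16 were called lower and 3 higher, with a median log2 fold change of -0.64. The ubiquitin ligase gene RAD18 fell to 37.4% of control, MMS22L, which acts at stalled forks, to 43.2% and the junction resolvase gene GEN1 to 47.7%. The 3 higher genes, named after their values were seen, were RAD52 at 0.42, SWI5 at 0.55 and RECQL5 at 0.57. Of 17 other tested Fanconi and crosslink genes, 7 were lower and 1 was higher, with a median of -0.16: USP1, which removes ubiquitin from FANCD2, fell to 46.4% and UHRF1 to 47.7%, while WDR48, the activating partner of USP1, was the gene that rose, to 125% of control (chosen after its value was seen).

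Checkpoint and mediator genes were mixed. Of 26 tested, 14 were lower (53.8%, against 30.1% of all tested genes) and 4 higher (against 30.0%), with a median of -0.46. TOPBP1 and CLSPN, which help ATR to act, fell to 43.2% and 36.8% of control, and the checkpoint kinase gene WEE1 to 56.7%. TP53BP1, whose product holds back resection, rose to 169%. SHLD1, ABRAXAS1 and BABAM2 were the other genes called higher, at 0.81, 0.68 and 0.47 on the log2 scale, and were named after their values were seen.

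The other repair routes were mixed. Shares called lower were 66.7% for non-homologous end joining, 43.75% for base excision and 33.3% for nucleotide excision repair. Among all tested genes 30.1% were called lower and 30.0% higher. In the share called lower, the 2 excision routes lay nearer that of all tested genes. Of 9 tested genes of non-homologous end joining, 6 were lower and 1 higher (median -0.39): PRKDC, the kinase of that route, fell to 49.7% and XRCC6 to 67.2% of control, while the polymerase gene POLL rose to 173%. Of 16 base excision repair genes, 7 were lower and 3 higher (median -0.16), with OGG1 and NEIL3, both glycosylases, at 45.6% and 32.4%. The 3 higher ones were TDG at 151% and, named after their values were seen, NEIL1 at 157% and APEX1 at 115%. Of 12 nucleotide excision repair genes, 6 were higher (against 30.0% of all tested genes) and 4 lower, with a median of 0.23. The helicase gene ERCC2 rose to 154% and the nuclease gene ERCC5 to 156%, while RAD23B fell to 58.3% and DDB2 to 63.2%. ERCC3, named after its value was seen, was also lower, at -0.24. Differences between these lists were not tested.

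Markers of cell division moved with the members. All 12 cell cycle markers were called lower, against 30.1% of all tested genes. The median log2 fold change of these markers was -1.40. Summed levels were 998 to 1113 CPM in AHR siRNA and 2676 to 2817 CPM in control siRNA libraries. The transcription factor genes MYBL2 and FOXM1 fell to 29.5% and 35.8% of control, CCNA2 to 37.4% and CDK1 to 38.6%. Their part in the falls of the members was not tested.

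**Figure D4:**
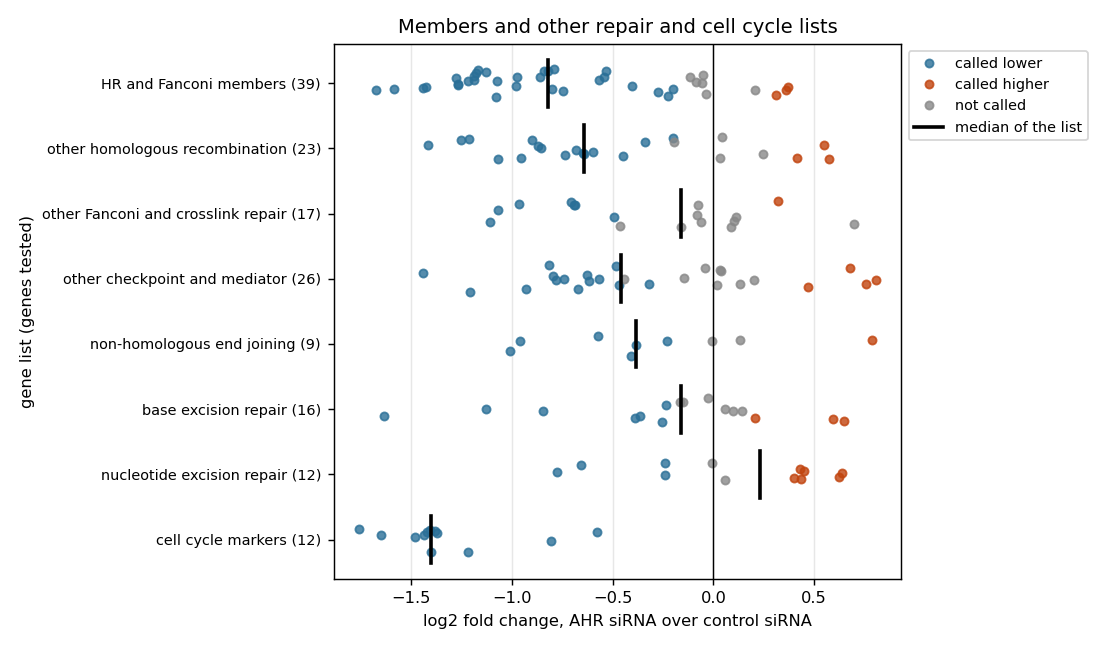
Log2 fold change, AHR siRNA over control siRNA, of each tested gene in the members and in 7 other lists, coloured by call, with the median of each list as a bar. Medians run from -1.40 for the cell cycle markers through -0.82 for the members to 0.23 for nucleotide excision repair.

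The promoters of the members were searched on both strands for 4 kinds of words, which can share bases where the end of one is the start of another. The E2F word (TTTGGCGC, TTTCCCGC, TTTGCCGC or TTTCGCGC) was found in 5 of 36 members (13.9%), against 3.33% of 27305 promoters and 5.29% of the 10720 promoters of tested genes. All 5 (XRCC2, FANCA, FANCC, FANCD2 and EXO1) were among the 27 searched members called lower, and the word was in 0 of the 8 others that were tested. That difference was not tested and rests on few genes. The FANCC call was lost in 7 of 14 alternatives. Set against the gene extents of GENCODE 29, some windows lay wholly inside the gene. These were FANCC, RAD50, RBBP8 and POLQ among the lower members, and RAD51B, RAD51D, MUS81 and ATM among the 8. The windows of BRCA1 and RMI1, both lower, lay wholly upstream of the gene. The CHR element TTTGAA was in 5 members (13.9%), against 15.4% of all promoters and 9.66% of those of tested genes, and CCAAT was in 15 (41.7%), against 35.7% and 36.6%. GCGTG, the core of the site that AHR binds with ARNT, was in 19 members (52.8%), against 36.3% of all promoters and 50.6% of those of tested genes. Members with GCGTG had a median log2 fold change of -0.97 (19 genes) and those without it -0.68 (16 genes). For the E2F word the medians were -0.98 with it (5 genes) and -0.77 without it (30 genes). With and without the word, they were -0.84 and -0.80 for TTTGAA, and -0.82 and -0.80 for CCAAT. None of these differences in median was tested. A match is only a description of the letters.

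Earlier work on these fold changes had picked the 7-base words GACTTAA and CACAACA in 3′ UTRs, so their shares are no independent evidence. In GENCODE 29 transcripts, 5 of the 40 members (12.5%) hold either word (BRCA1, XRCC2, XRCC3, FANCD2 and FANCF), against 16.1% of 12332 tested genes. Of these 5, 4 were lower and FANCF was higher, and the median log2 fold change was -0.57 with a word and -0.83 without one. Over all tested genes with a 3′ UTR, 47.0% of those with a word and 31.3% of those without one were called lower.

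Some members share exon positions with neighbours, and since the sources used here do not state a strand setting for the counting, reads of opposite genes cannot be told apart. XRCC3 shares 76.7% of its exon positions in GENCODE 29 with KLC1 on the opposite strand, which was not called (log2 fold change -0.15, edgeR adjusted p = 0.114). RAD54L shares 25.1% with LRRC41 and FANCA 23.6% with ZNF276, and both neighbours were higher (0.63 and 0.80) while the members fell. EME1 shares 16.4% with LRRC59, which was lower (-1.10), and MUS81 shares 13.9% with CFL1, which was lower (-0.68) while MUS81 rose. RAD54B shares 59.1% with FSBP on the same strand, which was at 0 in all 6 libraries, and its value is uncertain. RAD50 shares 79.7% with AC116366.3 on the same strand, whose ID has no row in the tables. The effect of these overlaps on the values was not tested.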

How the data were processed

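The authors deposited 1 table of whole-number read counts per gene for each of 6 samples, keyed by versioned Ensembl IDs. TopHat2 2.0.11, TopHat, HTSeq and the builds hg19 and GRCh37 are named, without their roles, per the submitters' processing notes; the RNA selection and the treatment of reads that map to several genes are not stated there. Symbols came from a table of gene names, which held 56321 of the 60483 IDs, and no coordinates were taken from the count tables. The counts were tested with edgeR 4.0.16 (R 4.3.3): genes were kept by filterByExpr, scaled by TMM and tested with glmQLFTest, with Benjamini-Hochberg adjustment over 14900 genes. Each SE was computed as the absolute log2 change over the square root of the F statistic, and 95% intervals used the total degrees of freedom of the fit. Transcript lengths, GC content and overlaps came from GENCODE 29 (GRCh38) by gene ID. The script was tested on simulated counts. The members and lists were chosen with earlier results of these data known. AHR and all members are named. Values of each library are given for the members with the 12 smallest p, those called higher and those not called or not tested; from the other lists up to 4 called genes with the smallest p are named. Some genes of the other lists are not reported here. Alternatives were other scalings and filters, a replicate block, DESeq2 1.42.0, limma-voom (limma 3.58.1), a stricter threshold, glmTreat with a minimum fold of 1.5 and leaving out each library. A loess correction for GC content and length (span 0.4) was chosen after seeing the data.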

Additional observations from a re-analysis of the deposited data

How the results depend on the processing

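Of 30 members called lower, 27 to 30 were called under every scaling, filter, test, library left out and threshold run, except 22 under glmTreat with a minimum fold of 1.5, which called 0 members higher (0 also at an unadjusted p under 0.05, and 2 to 4 in the other settings), and 1197 lower and 1316 higher among all genes. With library totals alone the log2 fold change turned for RAD51B (0.089), FANCL (0.034), MRE11 (0.11), NBN (0.060) and SLX4 (0.10), none of them called. With GC and length trends removed it turned for RAD51B (0.0036), MRE11 (0.024) and NBN (0.00056). Leaving out each library in turn gave a range of -0.16 to 0.0075 for RAD51B, which turned without AHR siRNA replicate 3, and of -0.15 to 0.059 for SLX4, which turned without control siRNA replicate 2. The replicate block kept every call, with 30 members lower and 3 higher (4810 lower and 4788 higher among all genes). Same-numbered libraries correlated in their deviations at 0.19, -0.04 and 0.15. AHR siRNA replicate 1 correlated best with its own number. Replicates 2 and 3 did not, and replicate 3 was close (0.154, against 0.160 with control siRNA replicate 2). With 3 libraries per group, these values cannot decide whether the numbers pair the libraries. The calls on PALB2, FANCC, FANCF and ATR depended on single libraries. Low counts limit FANCB, RAD51B, RAD54B and ATRIP.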
